A study of Rattus norvegicus with 54 samples.

Results

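The cytochromes P450 of families 1 to 3 were examined in the livers, gastrocnemius muscles and epididymal white adipose depots of male Sprague-Dawley rats. Members were taken as every array entry whose only gene symbol was that of a P450 gene of family 1, 2 or 3, with 1 probe kept per gene, the one with the highest mean over all 54 arrays. This gave 34 genes of 19802 entries tested. Another 7 entries of these families were left out of the 34. The entry Cyp3a23/3a1 was left out because its symbol joins names with a slash, and the others because they carried several gene names. The rats ate a diet rich in fructose with nordihydroguaiaretic acid (HFrD-NDGA), that diet alone (HFrD), or regular chow. Nordihydroguaiaretic acid (NDGA) is a catechol compound of the creosote bush that inhibits lipoxygenases. The stated NDGA content was 2.5 g per g of diet in one description and 2.4 g per kg in another, and the stated time on diet was 16 weeks in one and 8 weeks in the other. Each diet and tissue was present in a form without and a form with the tag INS, whose meaning is not given in the sources used here. The 6 liver groups were therefore HFrD-NDGA, HFrD and chow, and HFrD-NDGA INS, HFrD INS and chow INS, with 3 arrays each, and the same 6 groups existed for muscle and for adipose tissue.

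RNA of the rats of a group had been combined before labelling, so the 3 arrays of a group repeated 1 pool. The p-values below measure the spread between arrays and hold no spread between rats. Values are fluorescence intensities in scanner units, which end near 65500, where a spot is saturated. Changes are differences of log2 intensity after quantile normalization within a tissue, with the standard error (SE) of the fit, and a gene was called at an adjusted p under 0.05 in limma over all 19802 entries. Where a gene was not detected on any array of a group, the change is given as a lower bound ("at least"), computed against the dimmest detected probe of each array. Over the 54 arrays, the share of probes detected ran between 49.3% and 63.2% and the median intensity between 71 and 193.

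P450 enzymes of these families sit in the endoplasmic reticulum, take electrons from P450 oxidoreductase, and oxidize drugs, plant compounds, steroids and fatty acids. Hepatocytes hold most of them. Ligand-activated factors set many of their levels: the aryl hydrocarbon receptor (AHR) drives the Cyp1 genes, the constitutive androstane receptor (CAR, gene Nr1i3) the inducible Cyp2b genes, and the pregnane X receptor (PXR, gene Nr1i2) the Cyp3a genes. In rat liver a further group differs by sex under the pulsatile or steady release of growth hormone, with Cyp2c11, Cyp2c13, Cyp2a2, Cyp3a2 and Cyp3a18 predominant in males and Cyp2c12 and Cyp3a9 in females.

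The promoters of the 3 members that fell most in the liver diet comparisons without INS are shown. That of Cyp3a2, a close relative that stayed near the top of the scanner range, is shown with them. They come from RefSeq on the GRCr8 assembly, span 250 bases before to 50 bases after the annotated start, and are written in the direction of the gene. Capitals mark the nuclear-receptor half-site AGTTCA and the Onecut core ATTGAT or ATTGAC, each read on either strand. Cyp2c12 lies at chr1:248676985-248677284 on the minus strand, Cyp3a9 at chr12:21960111-21960410 (minus), Cyp3a18 at chr12:13994062-13994361 (plus) and Cyp3a2 at chr12:14343808-14344107 (minus).
Cyp2c12: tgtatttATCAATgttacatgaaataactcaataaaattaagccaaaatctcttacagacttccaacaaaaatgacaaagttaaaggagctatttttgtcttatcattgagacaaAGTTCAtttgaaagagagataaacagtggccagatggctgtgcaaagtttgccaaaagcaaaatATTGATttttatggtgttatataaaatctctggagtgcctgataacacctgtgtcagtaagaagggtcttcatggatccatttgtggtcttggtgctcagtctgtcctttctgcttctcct
Cyp3a9: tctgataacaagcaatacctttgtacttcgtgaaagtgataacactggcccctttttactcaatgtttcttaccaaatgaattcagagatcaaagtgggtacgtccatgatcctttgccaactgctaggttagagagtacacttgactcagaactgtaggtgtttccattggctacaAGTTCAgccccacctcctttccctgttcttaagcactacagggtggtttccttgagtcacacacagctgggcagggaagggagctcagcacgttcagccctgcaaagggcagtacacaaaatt
Cyp3a18: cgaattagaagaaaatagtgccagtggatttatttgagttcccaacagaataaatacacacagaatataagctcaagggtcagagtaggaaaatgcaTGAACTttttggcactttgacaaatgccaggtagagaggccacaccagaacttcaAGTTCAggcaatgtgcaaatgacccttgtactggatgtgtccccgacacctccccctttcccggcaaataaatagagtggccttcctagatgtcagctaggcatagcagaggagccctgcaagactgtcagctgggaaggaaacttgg
Cyp3a2: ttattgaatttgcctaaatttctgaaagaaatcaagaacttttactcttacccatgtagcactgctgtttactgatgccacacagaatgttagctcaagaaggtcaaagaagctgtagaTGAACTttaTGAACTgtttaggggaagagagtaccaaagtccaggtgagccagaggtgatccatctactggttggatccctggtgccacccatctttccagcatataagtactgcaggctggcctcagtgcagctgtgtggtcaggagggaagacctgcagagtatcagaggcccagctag

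Of the 34 genes, 30 had a promoter in the table. The half-site was present in 11 of these 30, including all 4 Cyp3a members, and in 14.5% of the 33469 promoters of the assembly. It lay 135 bases before the start in Cyp2c12, 73 before in Cyp3a9, and 153 and 98 before in Cyp3a18. Cyp3a2 held it as a pair with a 3-base spacer, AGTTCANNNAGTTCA on the opposite strand, an arrangement found in 0.00598% of all promoters and in no other of the 30. The Onecut core was in 3 of the 30, Cyp1a2, Cyp2c12 and Cyp2c13, against 13.9% of all promoters, and lay in Cyp2c12 at 243 and 71 bases before the start. The core GCGTG, which the AHR dimer contacts, was in 5 of 30 (Cyp1b1, Cyp2r1, Cyp2t1, Cyp2u1 and Cyp2w1), against 29.7% of all. These matches are letters in a window and were not tested for binding.

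In liver, 22 of the 34 genes were detected on all 18 arrays, 7 on some and 5 on none. The undetected genes, Cyp1b1, Cyp2a3, Cyp2b12, Cyp2b21 and Cyp2g1, read between 0 and 64 units. Of the members not described one by one below, Cyp2r1 ran between 398 and 525 units over the 18 liver arrays and Cyp2d3 between 25816 and 37547, while Cyp2c24 (29 to 131) was detected on 3 arrays and Cyp2c79 (42 to 146) on 5. At the other end, Cyp2c11, the major P450 of the male rat liver, was saturated on 17 arrays, Cyp2d2, a debrisoquine hydroxylase, on 8, Cyp3a2, a male-predominant testosterone hydroxylase, on 7, and Cyp2e1, the ethanol-inducible form, on 1. Increases of these 4 genes could not be read from such spots, nor could decreases where both compared groups were saturated. Between 24 and 28 of the 34 were detected per liver array, compared to 8 to 16 per muscle array and 9 to 19 per adipose array. All 8 hepatocyte markers (albumin, transthyretin and others) were detected in the HFrD-NDGA, HFrD and chow livers, with a summed intensity of 430656 to 455050, 453071 to 482752 and 423125 to 480982. All 8 skeletal muscle markers were detected in every muscle group, and all 6 adipocyte markers measured in every adipose group.

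Set against the other tissues of chow rats, with all 54 arrays normalized together, 29 of the 34 were called between liver and muscle, where 70.4% of all entries were, and 27 of the 29 were higher in liver, as were 33% of all entries. Against adipose tissue 28 were called, where 69.6% of all entries were, and 26 of the 28 were higher in liver, as were 32.3% of all entries. Cyp3a2 was at least 792-fold and Cyp2c11 at least 816-fold higher in liver than in adipose tissue, where neither was detected, and the Cyp2c11 spot and 2 of the Cyp3a2 spots were saturated in chow liver. Cyp2j10 ran the other way in muscle, with a liver-against-muscle difference of -2.94 on the log2 scale (SE 0.17, adjusted p = 1.7e-18). Cyp2u1, a fatty acid hydroxylase with a wide tissue distribution, gave 0.01 between liver and adipose tissue (SE 0.08, adjusted p = 1).

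The comparison of HFrD-NDGA with HFrD livers asks what NDGA did on top of the high-fructose diet. Of the 34 genes, 15 were called, 5 higher and 10 lower, where 19.6% of all entries were called, 10.1% as higher and 9.47% as lower. The median change of the 34 was -0.09, against 0.00 over all entries. The genes that fell most were Cyp3a9, Cyp2c12 and Cyp3a18, and the one that rose most among detected members was Cyp2j4. Among the 26 members detected on all 3 arrays of either group, 14 were called, where 28.7% of such entries were.

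Cyp2c12, which hydroxylates steroid sulfates and is known as the female form, had 1172, 1237 and 949 intensity units in HFrD-NDGA livers, 2769, 3002 and 3033 in HFrD livers, and 9110, 8917 and 9532 in chow livers. None of the 3 groups overlapped, and the HFrD-NDGA pool lay below the HFrD pool and that below the chow pool. The change with NDGA was -1.34 on the log2 scale (SE 0.08, adjusted p = 3.15e-08), and that of HFrD against chow was -1.80 (SE 0.08, adjusted p = 3.66e-09). Probe sequences were not used here, so signal from other Cyp2c transcripts at this probe was not tested.

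Cyp3a9, a Cyp3a form that is more abundant in female rats, had 961, 838 and 730 units in HFrD-NDGA livers, 2400, 2817 and 2458 in HFrD livers, and 6460, 6880 and 5825 in chow livers. The order of the pools was that of Cyp2c12, again with no overlap. The change with NDGA was -1.52 (SE 0.10, adjusted p = 1.59e-07), and that of HFrD against chow was -1.45 (SE 0.10, adjusted p = 4.16e-07). Cyp3a18, a steroid hydroxylase of the male liver, had 8981, 7745 and 6048 units in HFrD-NDGA livers, 13037, 14647 and 13462 in HFrD livers, and 28728, 32910 and 25471 in chow livers. Its changes were -0.81 with NDGA (SE 0.12, adjusted p = 3.67e-04) and -1.23 for HFrD against chow (SE 0.12, adjusted p = 1.26e-05). With arrays centred on their medians in place of quantile normalization, the NDGA change of Cyp3a18 was -0.69 and missed the threshold (adjusted p = 0.0694). The decline took in genes counted with the female pattern and genes counted with the male pattern.

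**Figure D1:**
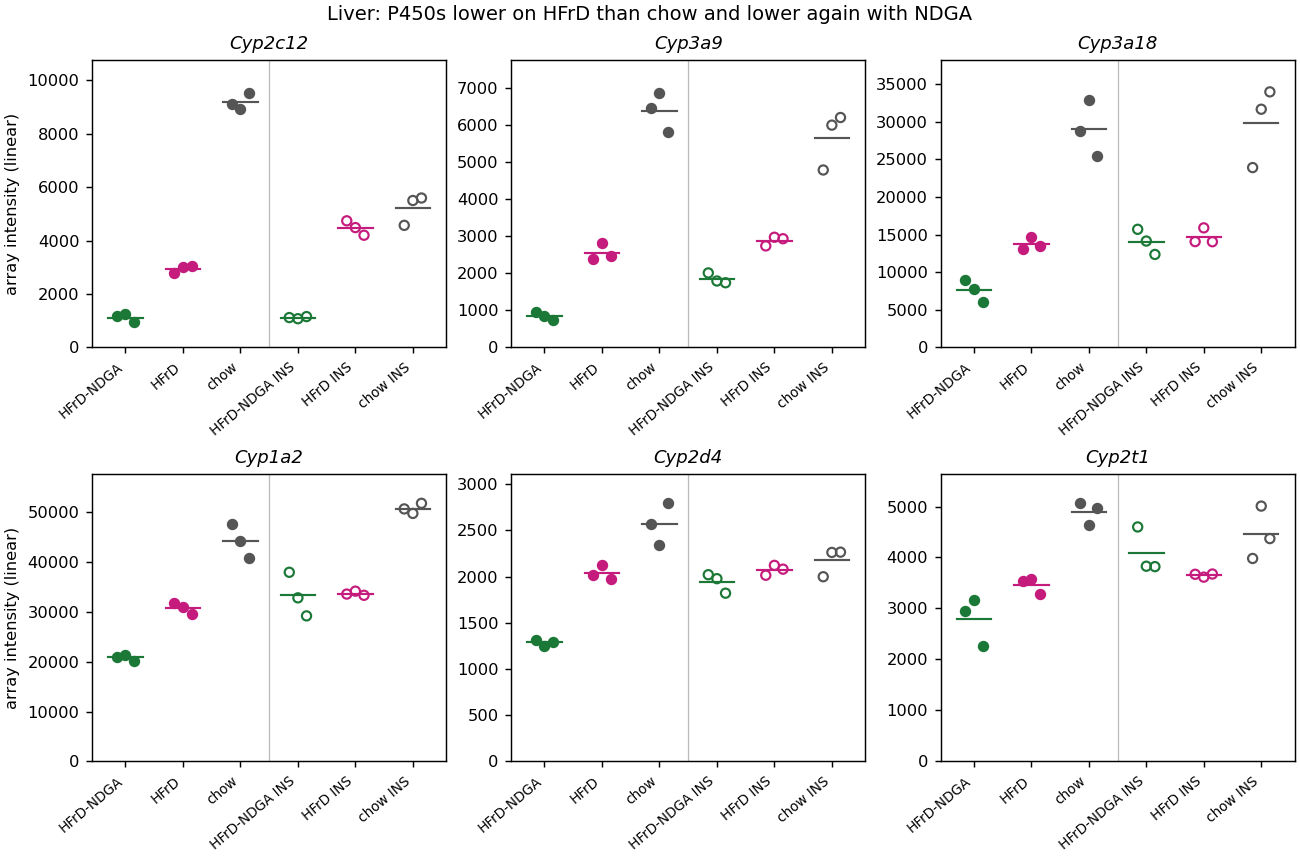
Intensity (scanner units, linear axis) of Cyp2c12, Cyp3a9, Cyp3a18, Cyp1a2, Cyp2d4 and Cyp2t1 on each of the 18 liver arrays by group, with filled points for arrays without INS, open points for arrays with INS and a bar at the mean of 3 arrays. Without INS, the points of HFrD-NDGA lie below those of HFrD and those below chow in all 6 panels, with Cyp2c12 at 949 to 1237, 2769 to 3033 and 8917 to 9532.

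Among the Cyp1a genes, the constitutive and the inducible form moved in opposite directions. Cyp1a2, the caffeine and arylamine oxidizing form that liver expresses without an inducer, had 20967, 21473 and 20254 units in HFrD-NDGA livers, 31828, 31079 and 29589 in HFrD livers, and 47607, 44225 and 40822 in chow livers. Its change with NDGA was -0.50 (SE 0.07, adjusted p = 3.39e-04), and its other probe gave -0.78. Cyp1a1, which is near silent in liver until AHR is activated, was detected only in HFrD-NDGA livers, at 71, 75 and 98 units, with 45, 45 and 35 undetected units in HFrD livers and 52, 37 and 81 in chow livers. It was at least 1.30-fold higher with NDGA than with HFrD alone (adjusted p = 0.00121). Intensities this close to background make that a small signal, and 1 chow array read above 2 of the HFrD-NDGA arrays.

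Of the Cyp2d genes, Cyp2d4 fell while its relatives did not pass the test. Cyp2d4, known as the main Cyp2d form of rat brain, had 1319, 1252 and 1297 units in HFrD-NDGA livers, 2016, 2123 and 1971 in HFrD livers, and 2574, 2345 and 2801 in chow livers. Its change with NDGA was -0.61 (SE 0.03, adjusted p = 1.97e-08). Cyp2d2 and Cyp2d3 each had a change of -0.09 (SE 0.10 and 0.06, adjusted p = 0.645 and 0.283), the first of them partly saturated.

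Cyp2t1, a member with no well-described substrate, had 2959, 3164 and 2262 units in HFrD-NDGA livers, 3534, 3584 and 3283 in HFrD livers, and 5076, 4631 and 4973 in chow livers, a change with NDGA of -0.29 (SE 0.08, adjusted p = 0.0231). Of the arachidonic acid epoxygenases, Cyp2j3 fell, with 2906, 3107 and 2467 units in HFrD-NDGA livers and 4008, 4118 and 4082 in HFrD livers (-0.49, SE 0.15, adjusted p = 0.0346), and so did Cyp2c23, with 38628, 34422 and 34378 units in HFrD-NDGA livers and 46200, 53870 and 45935 in HFrD livers (-0.39, SE 0.07, adjusted p = 0.00119). Neither pair of groups overlapped. Cyp2a2, a testosterone hydroxylase of the male liver, changed by -0.36 (SE 0.08, adjusted p = 0.00401). The probe named for both Cyp2a1 and Cyp2a2, left out for its shared name, did not show this fall. It read 2753, 2924 and 3020 units in HFrD-NDGA livers and 2646, 2952 and 2539 in HFrD livers, which overlap. In the INS pools it read 4151, 4178 and 3616 units with HFrD-NDGA and 2442, 2469 and 2426 with HFrD. The part of each gene in its signal was not tested. Cyp2b3, a Cyp2b form expressed without an inducer, changed by -0.37 (SE 0.11, adjusted p = 0.0307). These changes of Cyp2t1, Cyp2j3, Cyp2c23, Cyp2a2 and Cyp2b3, and that of Cyp1a2, all missed the threshold when arrays were centred on their medians, at -0.14 for Cyp2t1, -0.35 for Cyp2j3, -0.26 for Cyp2c23, -0.25 for Cyp2a2, -0.23 for Cyp2b3 and -0.38 for Cyp1a2. Without scaling, Cyp2t1 and Cyp2j3 missed it at -0.32 and -0.53. The call of Cyp2j3 was also lost on leaving out any of the 6 arrays (adjusted p up to 0.0917), that of Cyp2t1 without HFrD array 1 or 2 or HFrD-NDGA array 3 (up to 0.0888), and that of Cyp2b3 without HFrD array 1 or 3 or HFrD-NDGA array 1 (up to 0.121), counting arrays in the order of their values above.

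The genes that rose with NDGA did so from low levels or by little. Cyp2j4, an epoxygenase known from rat intestine and liver, had 178, 183 and 176 units in HFrD-NDGA livers, and undetected readings of 65, 58 and 64 in HFrD livers and 57, 57 and 61 in chow livers. It was at least 2.69-fold higher with NDGA than with HFrD alone (adjusted p = 1.92e-05). Cyp3a62, a Cyp3a form of liver and intestine, had 1976, 1949 and 1747 units in HFrD-NDGA livers, 1402, 1673 and 1663 in HFrD livers, and 1841, 1361 and 1771 in chow livers (0.29 with NDGA, SE 0.08, adjusted p = 0.0277). Cyp2e1, which oxidizes ethanol and acetone, had 59363, 56371 and 54731 units in HFrD-NDGA livers, 44515, 52797 and 49543 in HFrD livers, and 56472, 43580 and 55794 in chow livers (0.28 with NDGA, SE 0.09, adjusted p = 0.0388). On centring the changes were larger, at 0.45 for Cyp3a62 and 0.40 for Cyp2e1, but missed the threshold (adjusted p = 0.101 and 0.188), and without scaling they were 0.26 and 0.22 and missed it too (adjusted p = 0.162 and 0.316). That of Cyp2e1 was also lost on leaving out any of the 6 arrays (adjusted p up to 0.141), and that of Cyp3a62 without array 1 or 2 of either group (up to 0.126). Cyp2a3 passed the test at 1.17 (adjusted p = 0.0132) without being detected on any liver array, so no change is read from it.

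The brightest of the male-predominant forms gave no call with NDGA, unlike Cyp3a18 and Cyp2a2. Cyp2c13, a steroid hydroxylase of the male liver, had 40035, 39848 and 30165 units in HFrD-NDGA livers, 30007, 47861 and 47951 in HFrD livers, and 45559, 48643 and 42950 in chow livers, a change with NDGA of -0.09 (SE 0.17, adjusted p = 0.854). Cyp3a2 had 65496, 50071 and 65502 units in HFrD-NDGA livers, 40146, 57481 and 53512 in HFrD livers, and 56604, 65503 and 65499 in chow livers (0.28 with NDGA, SE 0.12, adjusted p = 0.127). The spread within a pool was as wide as the gap between pools for both. Cyp2c11 read 65491 or more on all liver arrays but 1, an HFrD-NDGA array at 16231 that was not called detected. The change with NDGA was -0.63 (SE 0.36, adjusted p = 0.263), with the other 5 arrays of both groups saturated.

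**Figure D2:**
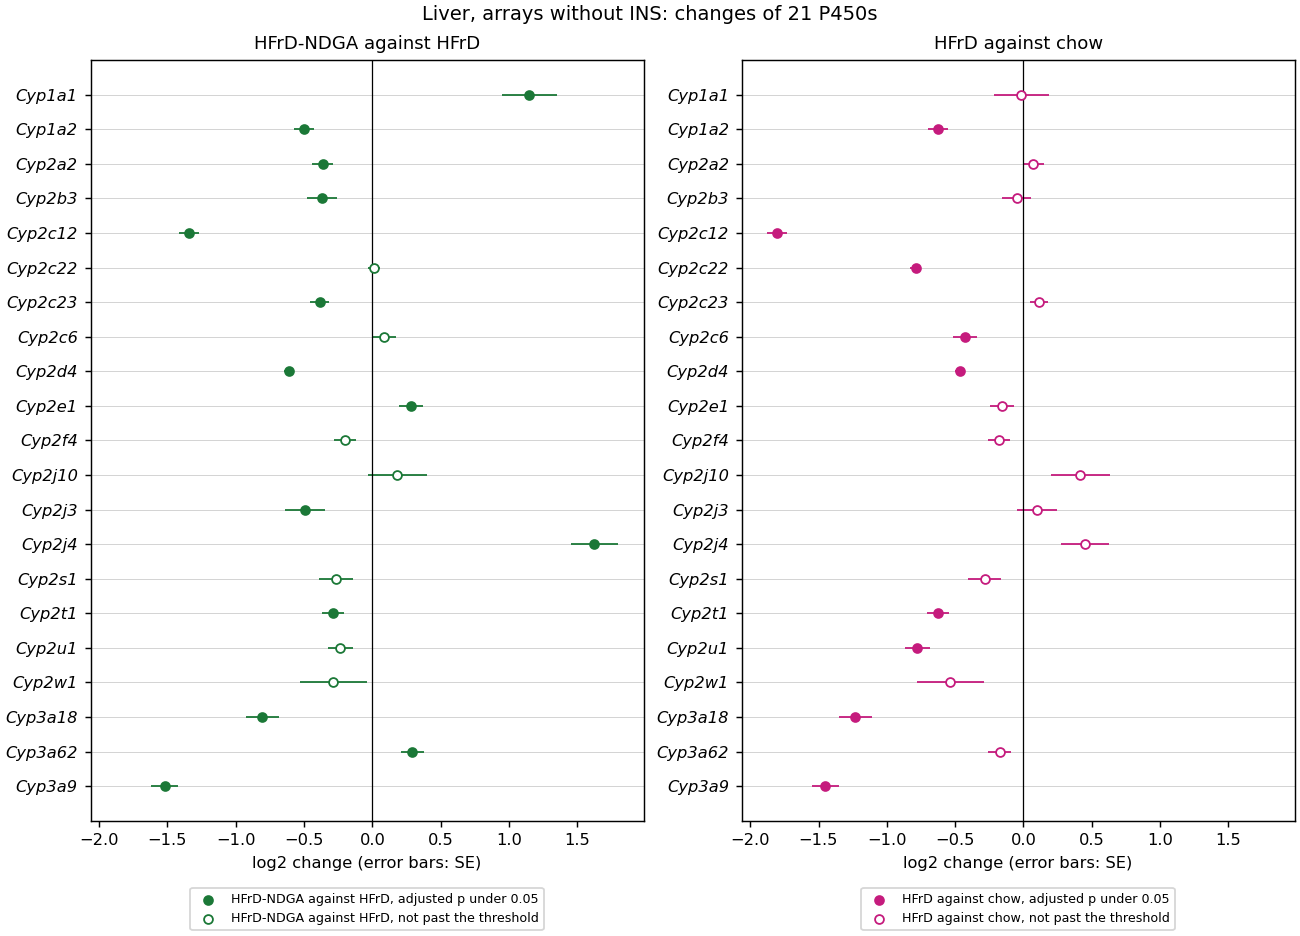
Log2 change with its SE for the 21 members that were detected and called in a liver diet comparison without INS, HFrD-NDGA against HFrD on the left and HFrD against chow on the right, with filled points at an adjusted p under 0.05. Cyp3a9, Cyp2c12 and Cyp3a18 sit farthest left in both panels, at -1.52, -1.34 and -0.81 for NDGA and -1.45, -1.80 and -1.23 for the diet.

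The probe named for both Cyp2b1 and Cyp2b2, the classic CAR targets, was not among the 34 because of its shared name, and it was singled out after its values were seen. It read 18806, 20622 and 21717 units in HFrD-NDGA livers, 2353, 2646 and 2409 in HFrD livers, and 13, 2273 and 3311 in chow livers, where the first chow array did not detect it. The HFrD-NDGA arrays lay above all others without INS. The change with NDGA was 3.09 (SE 1.42, adjusted p = 0.161), with an error set by that 1 chow array, since all groups shared 1 estimate of the spread. Without it the change was 3.09 (SE 0.11, adjusted p = 1.91e-09), an alternative chosen after seeing the data. In the INS pools the probe read 14157, 15118 and 11458 units with HFrD-NDGA, 2338, 2337 and 2253 with HFrD, and 4532, 4472 and 4142 with chow, a change with NDGA of 2.48 (adjusted p = 0.272 with the chow array and 1.67e-08 without it). Both probes whose names include Cyp2c7 fell with NDGA, with changes of -2.26 (adjusted p = 1.17e-08) and -1.80 (adjusted p = 1.02e-06). In the INS pools the first of these had normalized log2 intensities of 14.76, 14.35 and 14.23 with HFrD-NDGA and 15.20, 15.48 and 15.31 with HFrD. The entry named Cyp3a23/3a1, a PXR-inducible form, changed by -0.34 (adjusted p = 1.50e-04). It did not fall in the INS pools, at 14.87, 14.87 and 14.84 with HFrD-NDGA and 14.85, 14.76 and 14.74 with HFrD on the same scale.

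**Figure D3:**
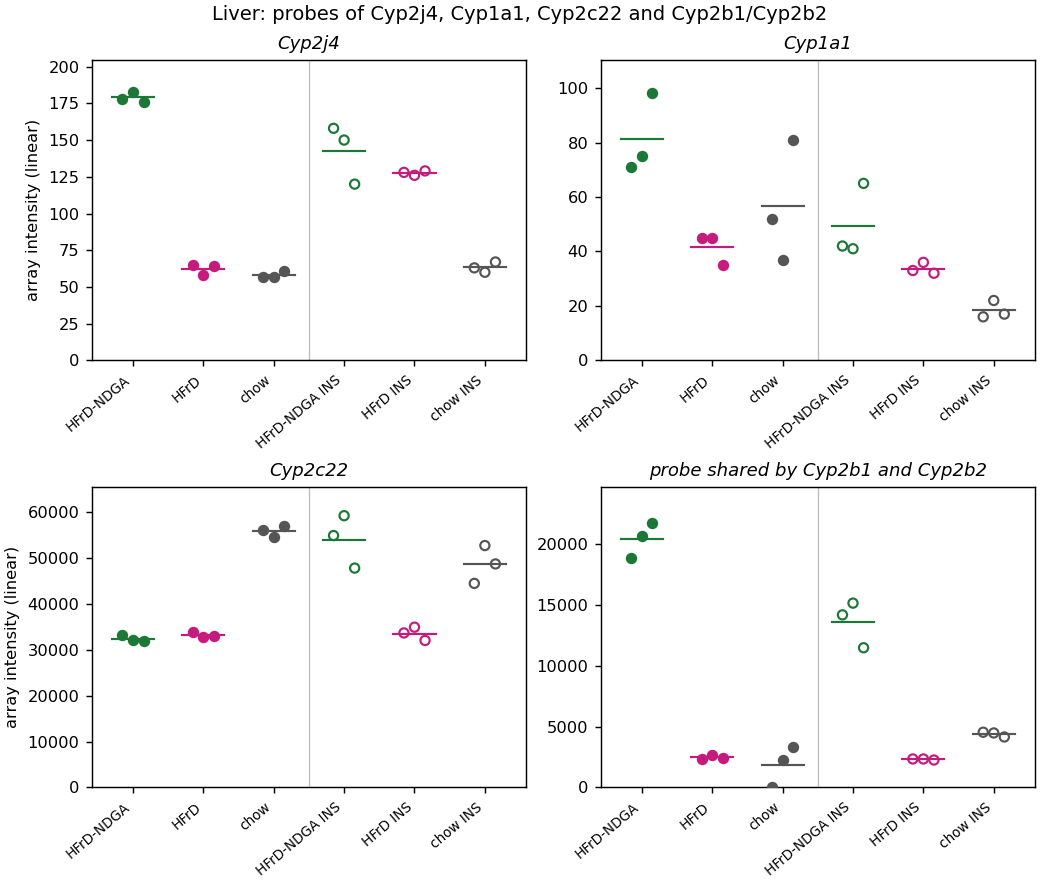
Intensity (scanner units) of Cyp2j4, Cyp1a1, Cyp2c22 and the probe shared by Cyp2b1 and Cyp2b2 on each liver array by group, with filled points without INS, open points with INS and a bar at the mean of 3 arrays. The shared probe lies at 11458 to 21717 on the 6 NDGA arrays and at 13 to 4532 on the other 12.

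The comparison of HFrD with chow livers asks what the high-fructose diet did. Of the 34 genes, 9 were called and all 9 were lower in HFrD livers, where 20.6% of all entries were called, 13% as higher and 7.64% as lower. The median change of the 34 was -0.12, against 0.00 over all entries. Beside Cyp2c12, Cyp3a9 and Cyp3a18, the lower genes were Cyp2c22 (-0.79, SE 0.04, adjusted p = 3.74e-08), Cyp2u1 (-0.78, SE 0.09, adjusted p = 5.67e-05), Cyp1a2 (-0.63, SE 0.07, adjusted p = 7.15e-05), Cyp2t1 (-0.62, SE 0.08, adjusted p = 1.42e-04), Cyp2d4 (-0.47, SE 0.03, adjusted p = 4.73e-07) and Cyp2c6 (-0.43, SE 0.09, adjusted p = 0.00422). On centring, the calls of Cyp1a2 (-0.23), Cyp2t1 (-0.21), Cyp2d4 (-0.045) and Cyp2c6 (-0.015) were lost, and without scaling that of Cyp2c6 (-0.30).

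Cyp2c22, a hydroxylase of retinoic acid, showed the diet step without the NDGA step. It had 33156, 32064 and 31888 units in HFrD-NDGA livers, 33835, 32826 and 33006 in HFrD livers, and 56105, 54456 and 56917 in chow livers. The HFrD and HFrD-NDGA pools differed by 0.01 (SE 0.04, adjusted p = 0.967). Cyp2u1 had 251, 263 and 280 units in HFrD-NDGA livers, 348, 321 and 341 in HFrD livers, and 574, 516 and 673 in chow livers, and its NDGA change of -0.23 did not pass the test (SE 0.09, adjusted p = 0.0942). It did pass without scaling (-0.35, adjusted p = 0.0231) and without HFrD array 2 (-0.31, adjusted p = 0.0472). Cyp2c6, a constitutive form of both sexes, had 1396, 1605 and 1338 units in HFrD-NDGA livers, 1429, 1351 and 1391 in HFrD livers, and 1736, 1532 and 1899 in chow livers. For Cyp2c6 the HFrD-NDGA and HFrD arrays overlapped (0.09, SE 0.09, adjusted p = 0.585).

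The comparisons of HFrD-NDGA with HFrD and of HFrD with chow share the HFrD arrays, so an HFrD pool read high or low shifts them in opposite directions. With HFrD-NDGA set directly against chow, 20 of the 34 genes were called, 4 higher and 16 lower, where 35.2% of all entries were called, 19.7% as higher and 15.5% as lower. Cyp2c12 changed by -3.15 (SE 0.08, adjusted p = 5.63e-12), Cyp3a9 by -2.97 (SE 0.10, adjusted p = 1.63e-10) and Cyp3a18 by -2.04 (SE 0.12, adjusted p = 4.77e-08), while Cyp1a2, Cyp2d4 and Cyp2u1 changed by -1.13, -1.08 and -1.01. Cyp2j4 was at least 2.94-fold and Cyp1a1 at least 1.42-fold higher in HFrD-NDGA than in chow livers, and the call of Cyp1a1 was lost without scaling (adjusted p = 0.0974).

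Smaller changes between HFrD-NDGA and chow livers made up the rest. Cyp2w1, a form known from human colon tumours, had normalized log2 intensities of 7.64, 7.03 and 8.18 in HFrD-NDGA livers, 8.07, 7.97 and 7.68 in HFrD livers, and 8.30, 8.37 and 8.66 in chow livers (-0.82 against chow, SE 0.24, adjusted p = 0.0195, and 0.0717 or 0.0850 without chow array 3 or HFrD-NDGA array 2). Cyp2j10 had normalized log2 intensities of 7.05, 7.15 and 6.40 in HFrD-NDGA livers, 6.77, 6.64 and 6.65 in HFrD livers, and 6.47, 6.50 and 5.83 in chow livers, where the first and last groups overlap, with a change against chow of 0.60 (SE 0.21, adjusted p = 0.0454). That call was lost without chow array 3 or HFrD-NDGA array 1 or 2 (adjusted p up to 0.192). Cyp2s1, an AHR-responsive form of epithelia, was not detected in HFrD-NDGA livers and was at least 1.01-fold lower than in chow livers (adjusted p = 0.00394). Without scaling, the Cyp2j10 change was 0.12 (adjusted p = 0.626). The lower calls of Cyp2c6, Cyp2b3, Cyp2c23, Cyp2f4 and Cyp2a2 against chow, of -0.34, -0.42, -0.27, -0.38 and -0.29, turned positive when arrays were centred on their medians, and without scaling those of Cyp2c6, Cyp2c23 and Cyp2a2 were lost. Cyp2f4, which bioactivates naphthalene in lung, had 4969, 4859 and 4909 units in HFrD-NDGA livers and 6561, 5542 and 6223 in chow livers.

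The pools with INS give the diet comparisons a further time, on other arrays of the same diets. Between HFrD-NDGA INS and HFrD INS livers 10 of the 34 genes were called, 4 higher and 6 lower, where 17.5% of all entries were called, 7.27% as higher and 10.2% as lower. Cyp2c12 had 1117, 1074 and 1153 units in HFrD-NDGA INS livers, 4740, 4486 and 4200 in HFrD INS livers, and 4570, 5500 and 5594 in chow INS livers, a change with NDGA of -2.17 (SE 0.08, adjusted p = 3.02e-10). Cyp3a9 had 2012, 1794 and 1747 units in HFrD-NDGA INS livers, 2742, 2976 and 2936 in HFrD INS livers, and 4793, 6005 and 6211 in chow INS livers (-0.78 with NDGA, SE 0.10, adjusted p = 1.18e-04). The HFrD-NDGA INS arrays lay below the others for both genes. Cyp2d4 changed by -0.24 (SE 0.03, adjusted p = 2.09e-04), and by -0.097 without scaling, where the call was lost (adjusted p = 0.297).

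Cyp2c12, Cyp2d4 and Cyp3a9 were lower with NDGA in both kinds of pool, and Cyp2e1 (0.28, adjusted p = 0.0458) and Cyp3a62 (0.49, adjusted p = 0.00142) were higher in both. In the INS pools, centring turned the Cyp2e1 change to -0.26, and its call was lost without scaling (0.21, adjusted p = 0.259) and on leaving out any array but HFrD-NDGA INS array 3 (adjusted p up to 0.148). Centring also ended the INS call of Cyp3a62 (0.16, adjusted p = 0.565). In the INS pools alone, Cyp2u1 (-0.94, adjusted p = 8.72e-06), Cyp2f4 (-0.65, adjusted p = 9.59e-05) and Cyp2r1, a vitamin D hydroxylase (-0.35, adjusted p = 0.0180), were called lower and Cyp2c22 (0.67, adjusted p = 1.61e-07) and Cyp2c6 (0.38, adjusted p = 0.00956) higher. On centring the last 2 were 0.21 (adjusted p = 0.371) and 0.087 (adjusted p = 0.843), and their calls ended. Cyp3a18, Cyp1a2, Cyp2t1, Cyp2j3, Cyp2c23, Cyp2a2 and Cyp2b3, called lower without INS, did not pass the test in the INS pools. For Cyp2t1, Cyp2j3, Cyp2c23, Cyp2a2 and Cyp2b3 the INS changes were positive whichever array was left out. They ran from 0.011 for Cyp2t1 to 0.41 for Cyp2j3. Cyp3a18 had 15705, 14142 and 12363 units in HFrD-NDGA INS livers, 14069, 15897 and 14054 in HFrD INS livers, and 23913, 31673 and 33981 in chow INS livers (-0.13 with NDGA, adjusted p = 0.526), and the first 2 pools overlapped.

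The difference between the NDGA change without INS and that with INS was tested as an interaction, and 14 of the 34 genes were called, where 15.3% of all entries were. It was called for Cyp2j4 (adjusted p = 3.17e-04), with no size given because HFrD livers without INS did not detect it. Cyp2j4 had 158, 150 and 120 units in HFrD-NDGA INS livers, 128, 126 and 129 in HFrD INS livers, and undetected readings of 63, 60 and 67 in chow INS livers. With INS the gene was detected under HFrD, and without INS it was not. For Cyp2c12 the difference was 0.83 (SE 0.11, adjusted p = 3.56e-04), a larger fall with INS, and for Cyp3a9 it was -0.74 (SE 0.14, adjusted p = 0.00474), a larger fall without INS. Cyp2c22, at 54845, 59166 and 47753 units in HFrD-NDGA INS livers, 33638, 34893 and 32004 in HFrD INS livers, and 44425, 52665 and 48662 in chow INS livers, had a difference of -0.66 (SE 0.06, adjusted p = 2.91e-05). Without scaling between arrays, the median of all entries was itself shifted by -0.34 in this interaction.

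**Figure D4:**
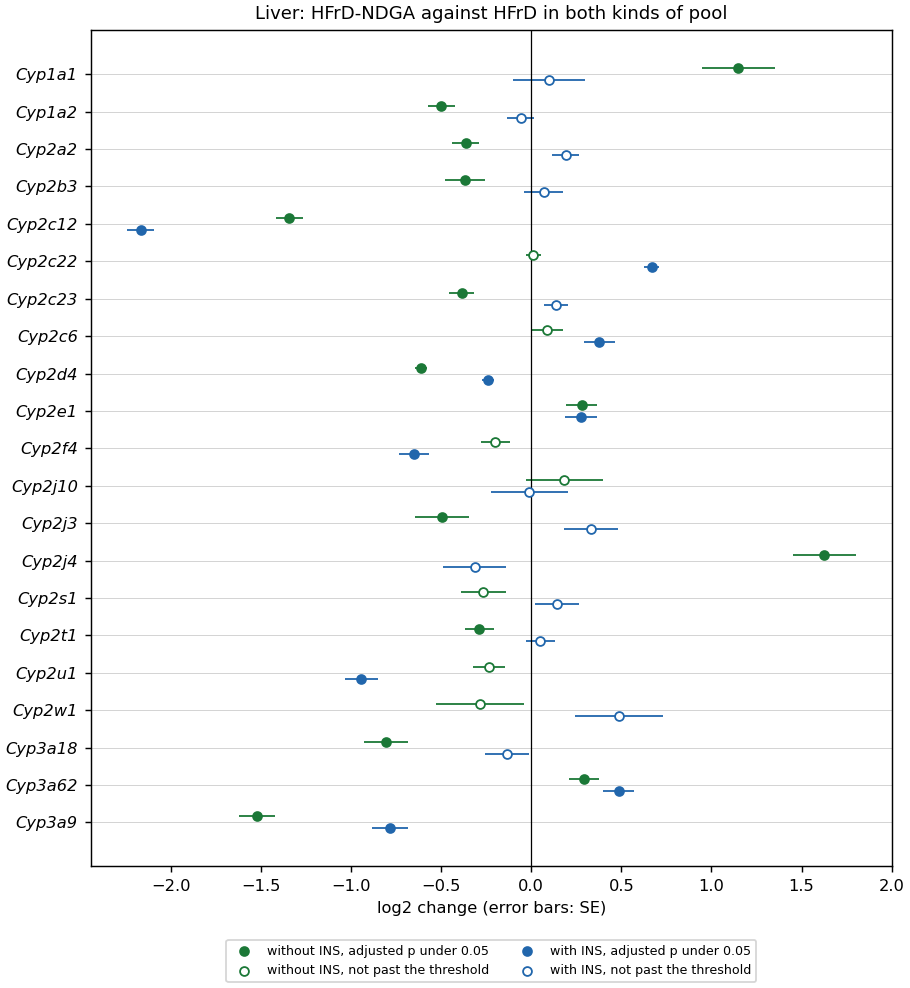
Log2 change of HFrD-NDGA against HFrD with its SE for the 21 named members, in the liver pools without INS and with INS, with filled points at an adjusted p under 0.05. Cyp2c12 (-1.34 without and -2.17 with INS), Cyp3a9 (-1.52 and -0.78) and Cyp2d4 (-0.61 and -0.24) lie to the left of 0 in both, while Cyp2j4 and Cyp1a1 are filled to the right of 0 only without INS.

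For the diet itself, HFrD INS against chow INS gave 9 calls of 34, 8 of them lower, where 11.5% of all entries were called and 6.36% as lower. The 8 lower genes, Cyp1a2, Cyp2c12, Cyp2c22, Cyp2d4, Cyp2t1, Cyp2u1, Cyp3a18 and Cyp3a9, were also called lower without INS. Cyp3a18 changed by -1.09 (SE 0.12, adjusted p = 4.81e-05), Cyp3a9 by -1.02 (SE 0.10, adjusted p = 1.50e-05), Cyp1a2 by -0.65 (SE 0.07, adjusted p = 5.75e-05) and Cyp2c22 by -0.60 (SE 0.04, adjusted p = 6.89e-07). Cyp2c12 changed by -0.28 (SE 0.08, adjusted p = 0.0286). Centring, or no scaling at all, ended the calls of Cyp2c12 (-0.32 on centring and -0.22 without scaling), Cyp2d4 (-0.17 and -0.068), Cyp2t1 (-0.38 and -0.28) and Cyp2u1 (-0.35 and -0.25). Leaving out 1 array ended that of Cyp2c12 for 4 of the 6 arrays (all but array 1 of each group), that of Cyp2t1 for 4 (all but array 3 of each group) and that of Cyp2u1 for 5 (all but HFrD INS array 1). For Cyp2c12 the change without INS minus that with INS was -1.52 (SE 0.11, adjusted p = 3.91e-06), and 3 of the 34 genes were called in that interaction, where 5.24% of all entries were.

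INS itself was set against its absence within each diet. Between HFrD-NDGA INS and HFrD-NDGA livers 15 of 34 genes were called, where 20.4% of all entries were, and the gene with the largest rise was Cyp3a9 (0.91, SE 0.10, adjusted p = 6.35e-05). Between HFrD INS and HFrD livers 3 were called, all higher, where 4.3% of all entries were, 2.29% as higher: Cyp2j4 (at least 1.86-fold), Cyp2c12 (0.61) and Cyp2u1 (0.50). Between chow INS and chow livers 8 were called, where 12.4% of all entries were, with Cyp2c12 at -0.91 (SE 0.08, adjusted p = 2.02e-05). As arrays were left out in turn the number called ran between 4 and 8, at 4 without chow array 1 or 3 or chow INS array 3 and at 5 without chow INS array 1 or 2.

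The factors and partners that P450 genes depend on were read beside them. Of 9 receptors and partners measured, 3 were higher and 1 lower with NDGA, with a median change of 0.05. Of all entries, 10.1% were higher and 9.47% lower. Nr1i3, the gene of CAR, averaged 1908 units in HFrD-NDGA livers, 498 in HFrD livers and 825 in chow livers, a change with NDGA of 1.96 (adjusted p = 8.81e-10) and of 1.95 in the INS pools (adjusted p = 1.01e-09). Rxrg, a retinoid X receptor of the family that pairs with CAR and PXR, changed by 1.02 (adjusted p = 6.28e-08). Nr1i2, the gene of PXR, and Ahr, both named for their role, did not pass the test (adjusted p = 0.585 and 0.280). Nr1i2 changed by 0.05, and Ahr was near background, detected on 0 of 3 HFrD-NDGA and 1 of 3 HFrD arrays, so no change is given.

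Of 15 hepatic and sex-dependent regulators measured, 4 were higher and 3 lower with NDGA (median -0.03), beside 10.1% and 9.47% of all entries. Onecut1, a homeodomain activator of Cyp2c12 in rat liver, averaged 842 units in HFrD-NDGA livers, 4485 in HFrD livers and 875 in chow livers (-2.32 with NDGA, adjusted p = 1.45e-12). It was -1.69 in the INS pools (adjusted p = 2.03e-11). Of the 3 pools without INS, HFrD livers were highest for Onecut1 and intermediate for Cyp2c12. Bcl6, a male-predominant repressor, ran the opposite way, at 477, 145 and 839 units in HFrD-NDGA, HFrD and chow livers (1.74 with NDGA, adjusted p = 1.63e-07). Foxa2 changed by -1.10 (adjusted p = 2.20e-08) and Foxa3 by 0.72 (adjusted p = 2.30e-06).

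Of 16 genes of electron supply and heme metabolism, 4 rose and 3 fell with NDGA (median 0.01), beside 10.1% and 9.47% of all entries. Por, the reductase that feeds all microsomal P450 enzymes, averaged 614 units in HFrD-NDGA livers, 298 in HFrD livers and 306 in chow livers (1.09 with NDGA, adjusted p = 2.83e-06), and Alas1, the first enzyme of heme synthesis, changed by 0.82 (adjusted p = 2.33e-07). Neither rise was present in the INS pools, where Por changed by 0.08 (adjusted p = 0.642) and Alas1 by -0.41 (adjusted p = 2.18e-04). Hmox1, which breaks heme down, changed by -0.73 (adjusted p = 6.00e-04).

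Of 13 other CAR and PXR targets measured, 5 rose and 4 fell with NDGA (median 0.22), beside 10.1% and 9.47% of all entries. Among them were the aldehyde dehydrogenases Aldh1a7 (3.09, adjusted p = 3.28e-10) and Aldh1a1 (2.01, adjusted p = 1.15e-10). The carboxylesterase Ces2c changed by 1.94 (adjusted p = 2.13e-10) and the glucuronosyltransferase Ugt2b1 by -1.36 (adjusted p = 2.33e-07). Of 3 other AHR targets measured, 1 rose, the quinone reductase Nqo1 (1.47, adjusted p = 1.51e-07), with a median of -0.22. For HFrD against chow the counts were 4 higher and 2 lower of the 9 receptors, 6 and 2 of the 15 regulators, 6 and 2 of the 16 electron and heme genes, 3 and 7 of the 13 CAR and PXR targets, and 0 and 2 of the 3 AHR targets. Of all entries, 13% were higher and 7.64% lower in that comparison.

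Liver zones and other cell types were read in the same way, because Cyp1a2 and Cyp2e1 belong to hepatocytes around the central vein. Of all entries, 10.1% were higher and 9.47% lower with NDGA, and 7.64% were lower with HFrD against chow. Of 9 pericentral genes, 5 were higher and 2 lower with NDGA (median 0.48), with Rhbg, an ammonia transporter, at least 6.18-fold higher and Rgn at -1.33. Aldh1a1 belongs to this list and to that of CAR and PXR targets, so its rise is counted in both. Of 10 periportal genes, none were higher and 7 lower (median -0.45), with Aldh1b1 at -4.09 and Sds, a serine dehydratase, at -1.01. Of 8 hepatocyte markers 1 was higher and 2 lower, but 7 of the 8 were saturated on at least 1 of these arrays, which limits what their changes can show. Of 7 macrophage markers measured 2 were higher with NDGA, and 5 were lower with HFrD against chow, with Marco at -1.53. Their summed intensity was 20974 to 23034 in HFrD-NDGA livers, 19444 to 20431 in HFrD livers and 25768 to 30840 in chow livers, and Cd163 was not detected. The part of zone or cell mixture in the P450 changes was not tested, and fewer cells of a type cannot be told apart from less RNA per cell in such pools.

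In muscle without INS, Cyp3a2, Cyp2c11 and Cyp2e1 were lowest in the HFrD pool, as were albumin and transthyretin. Between HFrD-NDGA and HFrD muscle 18 of the 34 genes were called, 16 higher and 2 lower, where 38.6% of all entries were called, 20.1% as higher and 18.4% as lower. Between HFrD and chow muscle 15 were called, all lower, where 40.4% of all entries were, 22% as lower. Cyp3a2 had 784, 741 and 767 units in HFrD-NDGA muscle, undetected readings of 56, 54 and 53 in HFrD muscle, and 804, 924 and 728 in chow muscle. That was at least 12.4-fold higher in HFrD-NDGA than in HFrD muscle and at least 12.8-fold lower in HFrD than in chow muscle.

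Cyp2c11, the brightest member in muscle, had 868, 1222 and 1492 units in HFrD-NDGA muscle, 178, 173 and 160 in HFrD muscle, and 830, 640 and 680 in chow muscle (3.12 with NDGA, SE 0.16, adjusted p = 5.02e-09). Cyp2e1 had 372, 537 and 511 units in HFrD-NDGA muscle, undetected readings of 61, 70 and 59 in HFrD muscle, and 205, 209 and 209 in chow muscle, at least 7.53-fold higher with NDGA than with HFrD alone. The HFrD arrays lay below the others for each of these genes. Cyp2d2 was at least 5.24-fold, Cyp2c13 at least 3.13-fold and Cyp2c22 at least 2.79-fold higher with NDGA.

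Of the 8 hepatocyte markers, all but Tf, the gene of transferrin, read lowest in HFrD among the pools without INS. Tf was highest there. The 8 markers summed to 25684 to 29427 units in HFrD-NDGA muscle, 10924 to 11858 in HFrD muscle and 17501 to 21265 in chow muscle. Albumin read 14208, 15436 and 14996 in HFrD-NDGA muscle, 1429, 1587 and 1463 in HFrD muscle, and 7535, 8792 and 6801 in chow muscle. Transthyretin read 1883, 2702 and 2900 in HFrD-NDGA muscle, 471, 489 and 484 in HFrD muscle, and 2886, 2599 and 2556 in chow muscle. Tf read 6630, 7835 and 6953 in HFrD-NDGA muscle, 7827, 8546 and 8096 in HFrD muscle, and 5793, 7087 and 5496 in chow muscle. Apob was detected in HFrD-NDGA muscle at 90, 126 and 151 units and not in HFrD muscle. In the INS pools the 8 markers summed to 4971 to 6009 units in HFrD-NDGA INS, 7655 to 8198 in HFrD INS and 9956 to 11886 in chow INS muscle. The part of liver RNA in these muscle pools was not tested.

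Cyp2j10, the member that muscle expressed above liver, had 362, 497 and 443 units in HFrD-NDGA muscle, 226, 268 and 253 in HFrD muscle, and 432, 483 and 384 in chow muscle (1.14 with NDGA, SE 0.07, adjusted p = 4.60e-08). With INS the order was different, at 394, 446 and 423 units in HFrD-NDGA INS muscle, 575, 599 and 517 in HFrD INS muscle, and 351, 274 and 345 in chow INS muscle (-0.40 with NDGA, SE 0.07, adjusted p = 0.00230). Cyp2t1 was lower with NDGA, at 112, 165 and 179 units in HFrD-NDGA muscle, 260, 274 and 226 in HFrD muscle, and 178, 174 and 169 in chow muscle (-0.46, SE 0.11, adjusted p = 0.00387). Albumin also had another order with INS, at 1239, 1419 and 1172 units in HFrD-NDGA INS muscle, 2560, 2513 and 2444 in HFrD INS muscle, and 3251, 2585 and 3040 in chow INS muscle.

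In adipose tissue, 15 of the 34 genes were called between HFrD-NDGA and HFrD, 9 higher and 6 lower, where 51% of all entries were called, 34.3% as higher and 16.7% as lower. Between HFrD and chow 14 were called, 7 in each direction, where 54.4% of all entries were, 16.9% as higher and 37.4% as lower. The median change of all entries was 0.10 and -0.11 in these 2 comparisons. Cyp2d4, the brightest member in adipose tissue, had 2136, 2257 and 2372 units in HFrD-NDGA, 1343, 1319 and 1000 in HFrD, and 953, 985 and 1012 in chow tissue. Its change with NDGA was 0.80 (SE 0.08, adjusted p = 1.38e-06), the opposite sign to that in liver. With INS it had 2421, 2132 and 2148 units in HFrD-NDGA INS, 2021, 1903 and 1922 in HFrD INS, and 826, 912 and 806 in chow INS tissue, and HFrD INS against chow INS was 0.99 (SE 0.08, adjusted p = 4.12e-07).

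Cyp2b21, a Cyp2b form known from rat oesophagus, was detected only in HFrD adipose tissue, at 186, 194 and 191 units, against readings of 38, 38 and 28 in HFrD-NDGA and 12, 15 and 26 in chow tissue. It was at least 2.30-fold lower with NDGA than with HFrD alone (adjusted p = 1.67e-07). Cyp2w1 had 176, 258 and 173 units in HFrD-NDGA, 450, 616 and 552 in HFrD, and 73, 134 and 178 in chow tissue (-1.41 with NDGA, SE 0.22, adjusted p = 1.42e-04). The HFrD pool also carried transcripts of the seminal vesicle, an organ that lies beside this depot. The 4 such genes measured summed to 2562 to 2954 units in HFrD-NDGA, 76980 to 104646 in HFrD and at most 160 in chow tissue. The 8 skeletal muscle markers summed to 2051 to 2106 units in HFrD-NDGA, 6564 to 8639 in HFrD and 37570 to 39252 in chow tissue. The part of either organ in these results for adipose tissue was not tested.

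Cyp2e1 was at least 1.62-fold higher in HFrD-NDGA than in HFrD adipose tissue (adjusted p = 5.79e-07), at 177, 164 and 185 units in HFrD-NDGA, undetected readings of 81, 66 and 75 in HFrD, and 82, 84 and 86 in chow tissue. Cyp3a62 had 238, 277 and 212 units in HFrD-NDGA, 255, 38 and 40 in HFrD, and 142, 135 and 186 in chow tissue (1.75 with NDGA, SE 0.67, adjusted p = 0.0422), where 1 HFrD array stood above 2 of the HFrD-NDGA arrays.

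Among adipose pools, that of HFrD INS had the highest Cyp2c11 and Cyp3a2 readings. Between HFrD INS and chow INS tissue 17 of the 34 genes were called, where 24.1% of all entries were. Cyp2c11 had 2457, 1961 and 2116 units in HFrD INS tissue against 123, 89 and 92 in chow INS tissue (4.20, SE 0.21, adjusted p = 5.15e-09), and Cyp3a2 had 642, 684 and 793 units against undetected readings of 42, 38 and 39, at least 8.35-fold higher. Transthyretin read 7485, 7386 and 7555 in HFrD INS tissue and 158, 177 and 157 in chow INS tissue, and the 8 hepatocyte markers summed to 69606 to 78066 units in HFrD INS and 38981 to 45367 in chow INS tissue, with all 8 detected in the first. The part of liver RNA in that pool was not tested.

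**Figure D5:**
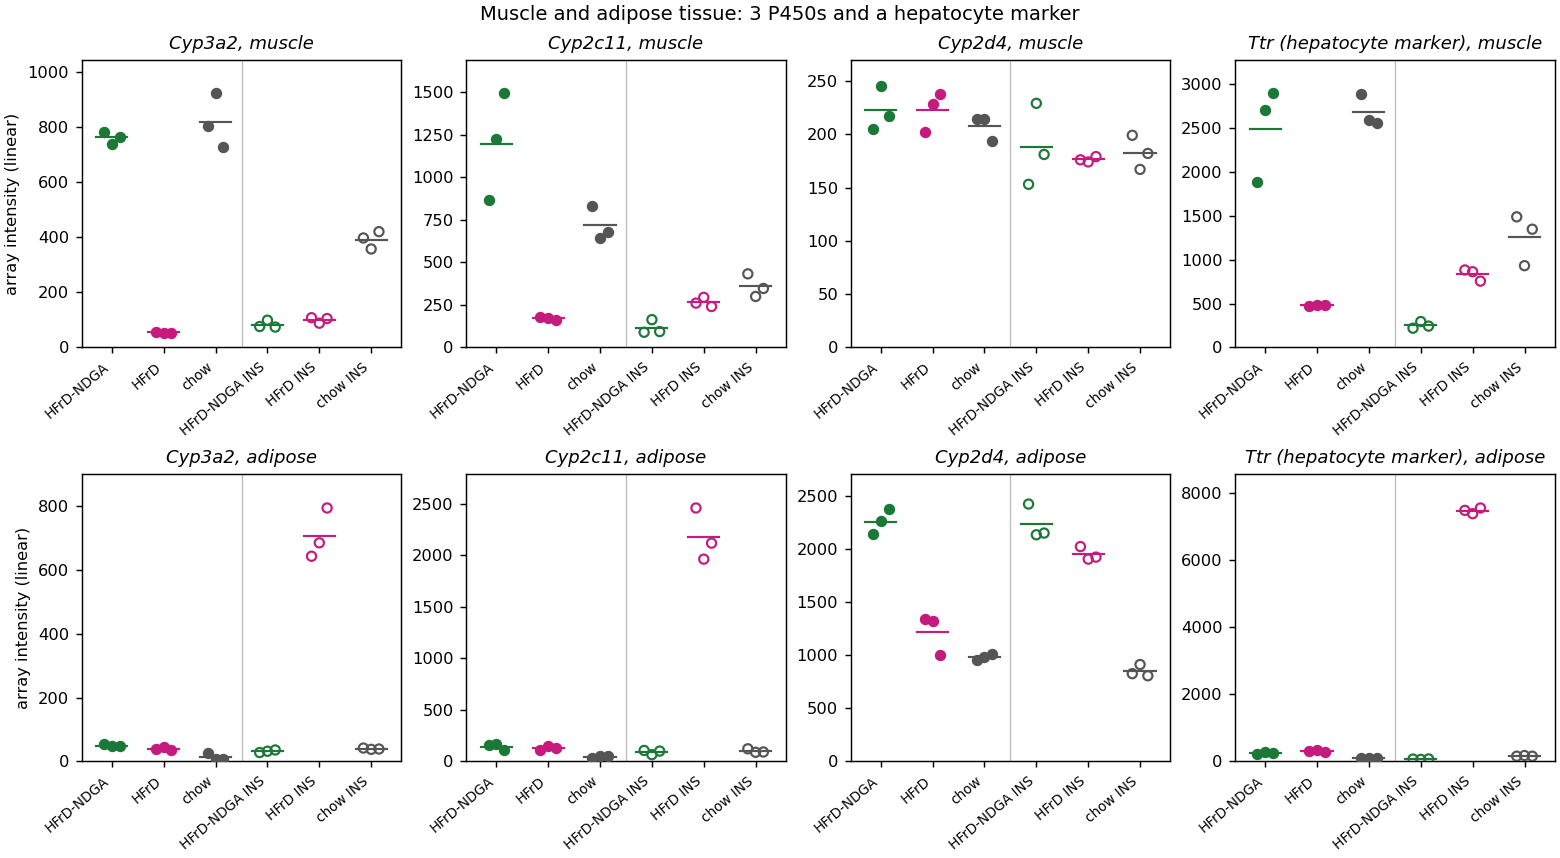
Intensity (scanner units) of Cyp3a2, Cyp2c11, Cyp2d4 and the hepatocyte transcript Ttr on each array of muscle (top) and adipose tissue (bottom) by group, with filled points without INS, open points with INS and a bar at the mean of 3 arrays. Cyp3a2, Cyp2c11 and Ttr are lowest without INS in HFrD muscle and highest in HFrD INS adipose tissue (Ttr 7386 to 7555), whereas Cyp2d4 in adipose tissue is highest in the HFrD-NDGA pools.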

How the data were processed

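The members, the gene lists and the tests were chosen with earlier results of these data known. RNA was pooled within each of 18 groups and hybridised with Cy5 to 3 Rat OneArray v1 arrays a group. The deposited intensities were GenePix spot values with local background subtracted by the authors, still on the linear scale (-44 to 65506) and not scaled between arrays, although the deposited table is called normalized. The authors' methods name scaling and log2 steps in Partek, so these steps were made here. A deposited detection p-value per spot was used at a threshold of 0.05, and how it was computed is not given in the sources used here. A second deposited table of intensities was identical.

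Of 24358 probes, 21270 carried a single gene symbol, 1175 several and 1913 none (7.85%). Probes without a symbol were not tested. Those with several symbols were tested as entries of their own and count in the shares over all entries, but were not members. Of the 34 members, 32 matched a current RefSeq symbol, 1 (Cyp2c6) an older one and 1 (Cyp2c79) none. Arrays of a tissue were quantile normalized, floored at 16 and taken to log2 (R 4.3.3, limma 3.58.1), then fitted over 19802 entries with all 6 groups sharing the spread (lmFit, eBayes) and Benjamini-Hochberg adjustment. Between 9.41% and 26.8% of values per array lay below the floor. A spot of 65000 or more was taken as saturated. Lower bounds used, per array, the higher of the lowest detected signal (64 to 116 units) and the spot's own value. Tissues were compared after normalizing all 54 arrays together. On simulated arrays the fit called 42.4% of changes of 0.5, 85.1% of 1 and 97% of 2 on the log2 scale. Changes were planted only in brighter entries and saturation was not simulated, so these shares do not cover dim or saturated members. Members were named where they were detected on all 3 arrays of a liver group and called in a liver diet comparison without INS, with the brightest member of each tissue and up to 6 members of muscle and of adipose tissue that changed by at least 1. Other members are named where a count called for them, after their values were seen. Alternatives were median centring, no scaling, a floor of 64, an offset of 16, other sets of arrays, a filter on detection (3 arrays), probe means, a fold of 2 and leaving out single arrays. The number of arrays limits the precision.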

Additional observations from a re-analysis of the deposited data

Results flagged for a closer look

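In liver, the change of some genes differed between the pools without INS and the pools with INS in a test of the difference itself (limma, adjusted over all entries). The values are the change without INS minus the change with INS on the log2 scale. For HFrD-NDGA against HFrD, the difference was negative for Cyp2c24 (-0.83), Cyp2j3 (-0.82), Cyp3a9 (-0.74), Cyp3a18 (-0.67), Cyp2c22 (-0.66), Cyp2a2 (-0.55), Cyp2c23 (-0.52), Cyp1a2 (-0.44) and Cyp2d4 (-0.37). Among these, Cyp2j3, Cyp2a2 and Cyp2c23 fell without INS and had positive changes with INS, which did not pass the test. The difference ran the other way for Cyp2f4 (0.45), Cyp2u1 (0.71), Cyp2c12 (0.83), Cyp1a1 (1.05) and Cyp2j4 (1.94). Cyp2c24 and Cyp1a1 were each detected on 3 of the 18 liver arrays and Cyp2j4 on 9, none of them HFrD arrays without INS for Cyp1a1 and Cyp2j4, so for these 3 genes the difference is a fitted value close to background and its size is not a measurement. For HFrD against chow it was -1.52 for Cyp2c12, -0.54 for Cyp2c6 and -0.32 for Cyp2d4. Each group was 1 pool on 3 arrays, so differences between pools and differences tied to INS cannot be told apart, and groups of 3 are too small to test a single array as an outlier.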

How the results depend on the processing

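No paired analysis was possible, because the arrays of a group repeated the same pool and the labels give them no replicate numbers. Centring arrays on their medians moved the counts of members called in liver to 6 for HFrD-NDGA against HFrD (3 in each direction), 5 for HFrD against chow, 5 for HFrD-NDGA INS against HFrD INS, 14 for chow INS against chow, 1 for HFrD INS against HFrD, and 7 and 1 for the differences of the NDGA and the diet change between pools. Without scaling, HFrD INS against chow INS gave 5 and chow INS against chow 3. With a fold of 2 added, HFrD-NDGA against HFrD gave 5, HFrD against chow 3 and HFrD-NDGA against chow 9, a stricter rule by its construction. Leaving out single arrays kept all counts within 1.5 times but that of chow INS against chow (4 to 8). Of the 72 counts under other settings, 60 stayed within 1.5 times. On centring, the changes of HFrD-NDGA against chow turned to 0.22 for Cyp2c6, 0.038 for Cyp2b3, 0.25 for Cyp2c23, 0.16 for Cyp2f4 and 0.25 for Cyp2a2, and that of HFrD-NDGA INS against HFrD INS to -0.26 for Cyp2e1. The cause was not tested. Calls of Cyp2c12, Cyp3a9, Cyp2d4, Cyp2j4 and Cyp1a1 for HFrD-NDGA against HFrD, and of Cyp2c12, Cyp3a9, Cyp3a18, Cyp2c22 and Cyp2u1 for HFrD against chow, were also made after centring. Over all entries, the share of calls that were higher was 51.7% with quantile normalization, 59.3% on centring and 34.6% without scaling for HFrD-NDGA against HFrD. In the same order it was 63%, 83.8% and 55.9% for HFrD against chow, 55.9%, 73.6% and 31% for HFrD-NDGA against chow, 41.5%, 23.8% and 87.8% for HFrD-NDGA INS against HFrD INS, 44.6%, 37.8% and 66.2% for HFrD INS against chow INS, 74.1%, 87.4% and 17% for chow INS against chow, 53.2%, 35.3% and 44.1% for HFrD INS against HFrD, and 41.5%, 21.5% and 95.2% for HFrD-NDGA INS against HFrD-NDGA. Without scaling, the median of all entries itself shifted by 0.25 for HFrD-NDGA INS against HFrD INS, 0.32 for HFrD-NDGA INS against HFrD-NDGA, -0.16 for HFrD-NDGA against chow and -0.12 for chow INS against chow. Without the first chow array, the Cyp2b1 and Cyp2b2 probe changed by 2.79 for HFrD-NDGA against chow and -0.29 for HFrD against chow (adjusted p = 0.131), where all arrays gave 5.31 and 2.22, a choice made after seeing the data. Readings near background limit Cyp1a1 and Cyp2j4, and saturation limits Cyp2c11, Cyp2d2 and Cyp3a2.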

Other observations

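In adipose tissue, Cyp2g1, an olfactory P450, read 2594 units on 1 HFrD array and 6 and 5 on the other 2 arrays of the same pool. Cyp1a1 read 628 and 650 units on 2 HFrD adipose arrays and was not detected on the other.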
